A study of Mus musculus with 2 samples.

Results

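Collagen-rich dermal fibroblasts were the 184 barcodes, of 7248 kept in all, in which Dcn took at least 0.2% of the unique transcript molecules (UMIs) and Col1a1, Col1a2 and Col3a1 together at least 2%. Each also held under 2 UMIs of Pi16, under 2 of Myoc, under 2 of Mmp11 with Lrrc15, and no UMI of Ptprc, the pan-leukocyte gene. The Card14KI library gave 54 of these cells and the WT library 130. Both libraries came from full-thickness back skin of 12-month-old C57BL/6 mice, 1 mouse homozygous for a Card14 knock-in (genotype label Card14 KI +/+) and 1 wild-type mouse. The knock-in is a model of pityriasis rubra pilaris, an inflammatory scaling disease, and its Card14 mutation is not named in the labels. Card14 itself, a keratinocyte signalling scaffold, had 0 UMIs in Card14KI members and 1 UMI in WT members. With 1 library per genotype, genotype, animal and library cannot be told apart. No difference below has a replicate check or a p-value, and every interval is an exact 95% interval for counting error only.

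Dermal fibroblasts build the connective tissue of the skin. They secrete type I and type III procollagen, which chaperones fold in the endoplasmic reticulum. Outside the cell the collagen assembles with proteoglycans such as decorin and lumican and with matricellular proteins such as SPARC and periostin. The same cells are a source of complement, chemokines and IGF-binding proteins, and they respond to interferon and to IL-17 and IL-1 family cytokines.

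The 54 Card14KI members carried 224591 UMIs and the 130 WT members 853051, a median of 4203 and 5900.5 UMIs and of 1667 and 2140.5 genes per cell. The median mitochondrial share was 2.44% in Card14KI members and 2.75% in WT members. Levels are given as CPM, the UMIs of a gene per 1000000 UMIs of all members of the library. One UMI was worth 4.45 CPM in Card14KI members and 1.17 CPM in WT members, so low genes are known less well in Card14KI. The 2 libraries had 2 barcodes in common, neither of them a member. Members were 1.85% (1.40 to 2.41) of kept Card14KI barcodes and 3.0% (2.51 to 3.55) of kept WT barcodes. Because the rule counts collagen UMIs, a difference in collagen level moves these shares.

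Of the 5 markers, Col1a1 and Col3a1 belong to the rule and had to be high, Sparc and Lum, which the rule did not use, were higher than in the other fibroblasts, and Cilp was not. Col1a1, the type I collagen alpha 1 chain (ENSMUSG00000001506, plus strand of mm10 chromosome 11, 94936224 to 94953042), stood at 13567 CPM in Card14KI members and 28100 CPM in WT members, 5.23 and 3.06 times its level in the other fibroblasts of the same library. Col3a1, the type III chain, was at 14177 and 20891 CPM. Sparc, a collagen-binding matricellular protein, was at 7186 and 15855 CPM, 3.68 and 2.83 times the other fibroblasts. Lum, the proteoglycan lumican, was at 4368 and 3439 CPM, 2.01 and 1.48 times. Cilp, a matrix protein known from cartilage, was at 481 CPM in Card14KI members and 884 CPM in WT members, 0.922 and 0.897 times the other fibroblasts, and in WT the Pi16 fibroblasts held more of it (1088 CPM). It lay in 1 subgroup of the members, described below.

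Markers of immune and endothelial cells were near 0 in the members, and those of epithelial cells were read at low levels. Of 8 immune markers, 5 were at 0 in Card14KI members and 6 in WT members, Ptprc by the rule, with a summed 17.8 and 10.6 CPM. Endothelial markers summed to 13.4 and 18.8 CPM, and pericyte and smooth muscle markers to 93.5 and 49.2 CPM, with 14 of the 21 Card14KI UMIs in 1 cell. Of 4 adipocyte markers, Adipoq, Plin1 and Cidec were at 0 in both libraries, and the fourth, Fabp4, had 16 UMIs in Card14KI members and 85 in WT members (71.2 and 99.6 CPM), of which 1 cell held 12 and 33. The sebocyte markers Scd1, Mgst1, Fabp5 and Elovl3 summed to 650 and 605 CPM, in 44 of 54 and 105 of 130 members, against 680 and 859 CPM in the other fibroblasts and 8522 and 8199 CPM in barcodes without Dcn. Hair follicle markers summed to 8.91 CPM in 2 Card14KI members and 150 CPM in 79 WT members. Keratinocyte markers summed to 334 CPM in Card14KI members and 1018 CPM in WT members, where 1 cell held 682 of 868 UMIs. Red cell globins summed to 245 and 715 CPM, and 1 WT cell held 585 of the 610 UMIs there. The part of such UMIs in the differences below was not tested. Xist was read in both libraries, and no UMI of 4 Y-linked genes was found in members of either.

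The rule is a threshold on a continuous measure. The collagen share of a member was at a median of 3.21% of UMIs in Card14KI (quartiles 2.67 and 4.59, highest 17.5) and of 4.78% in WT (3.17 and 8.63, highest 27.5). A share of 10% or more was reached by 2 of 54 Card14KI members (3.70%) and 30 of 130 WT members (23.1%). Just inside the threshold, at 2% to 2.5%, lay 10 Card14KI and 19 WT members, and just outside it, at 1.5% to 2%, lay 15 and 13 barcodes that met every other part of the rule. Inside and outside, these neighbours had 3003 and 4133 CPM of Sparc in Card14KI, and 4458 and 3405 CPM in WT. Lum was lower inside than outside in both libraries, at 3106 and 3719 CPM in Card14KI and 1672 and 2663 CPM in WT. At the edge of the Dcn threshold, 3 Card14KI and 6 WT members had a Dcn share of 0.2% to 0.3%, and 0 and 4 barcodes lay at 0.1% to 0.2%.

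**Figure D1:**
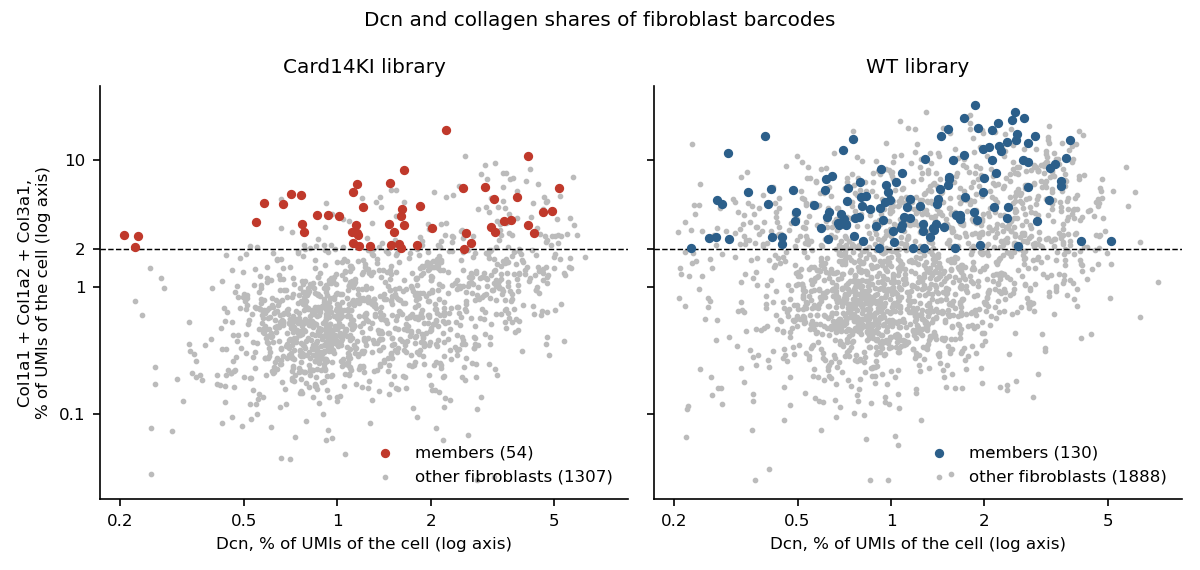
Share of UMIs from Dcn (x axis, log scale) against the summed share of Col1a1, Col1a2 and Col3a1 (y axis, log scale) for each fibroblast barcode of the Card14KI (left) and WT (right) library. Coloured points are members, grey points other fibroblasts, and the dashed line is the 2% threshold; grey points above it hold 2 or more UMIs of Pi16, Myoc, or Mmp11 with Lrrc15, cells with no collagen UMI are drawn at the bottom, and 30 WT but 2 Card14KI members lie at 10% or more.

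Nor does the rule part the members cleanly from their neighbours, because it counts UMIs whatever the depth of a cell. A single Pi16 UMI was found in 21 Card14KI members (38.9%) and 40 WT members (30.8%), and a single Mmp11 or Lrrc15 UMI in 9 and 33. Only 24 and 65 members had none of the 4 genes. The collagen threshold was not applied to the Pi16 fibroblasts, a population linked to progenitors of the reticular dermis and fascia. In them a collagen share of 2% or more was found in 94 of 560 Card14KI cells (16.8%, 13.8 to 20.1) and 363 of 724 WT cells (50.1%, 46.4 to 53.8). In Myoc fibroblasts it was found in 13 of 576 Card14KI cells (2.26%) and 39 of 640 WT cells (6.09%). The lower collagen share of the Card14KI library was therefore also measured in fibroblasts that collagen did not select.

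The first comparison asked how members of the Card14KI library differed from those of the WT library. Among 5832 genes with a mean of 20 CPM or more, leaving out the genes of the rule, 1133 (19.4%) were 1.5-fold or more higher in Card14KI members and 827 (14.2%) were 1.5-fold or more lower. Many of these rest on a handful of UMIs. Among the 1420 genes at a mean of 100 CPM or more, 164 (11.5%) were higher and 117 (8.24%) lower. The counts of the gene lists are of genes at a mean of 20 CPM or more, and are read against 19.4% higher and 14.2% lower. The median log2 ratio of all measured genes was 0.06. For named genes, each setting was read from the log2 ratio. It adds a constant to each CPM, which draws low genes towards no difference. Eln and Deptor, called by the ratio of CPM, were under 1.5-fold on this scale and are not counted here. Of the 66 named genes past 1.5-fold on it, 29 stayed past it in every setting tried. The other 37 fell under 1.5-fold or turned in at least 1 setting. Of those 37, 19 did so in the 24 Card14KI and 65 WT members with no UMI of Pi16, Myoc, Mmp11 or Lrrc15, called the strict members below. Another set, members of 3% to 6% collagen share, had 17. Both sets were chosen after the data were seen. Planned settings lost calls too, 13 at a collagen threshold of 1% and 11 at 4%. With members thinned to 2000 UMIs 10 were lost, and with each cell weighing the same 9. A gene can count in more than 1 setting.

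Collagens outside the rule were lower in Card14KI members. Of 10 measured fibrillar and fibril-associated collagens, 5 were 1.5-fold lower (against 14.2% of all genes) and 0 higher (against 19.4%), with a median log2 ratio of -0.60. Col5a2, a type V chain that nucleates type I fibrils, was at 681 CPM in Card14KI members and 1071 CPM in WT members (ratio 0.636, 0.532 to 0.755). Col6a2, a chain of the beaded microfibrils of type VI collagen, was at 597 and 976 CPM (ratio 0.611, 0.505 to 0.734). The other type VI chains differed less, with Col6a3 at 1518 and 1808 CPM (ratio 0.840, 0.745 to 0.945) and Col6a1 at 1216 and 1463 CPM (0.831, 0.726 to 0.948). The fibril-associated Col14a1 and Col12a1 were further apart, at 169 and 388 CPM and at 40.1 and 120 CPM, but from 38 and 9 UMIs in Card14KI members. The log2 ratio of Col5a2, -0.65, came to -0.31 in the strict members and to -0.25 at a collagen threshold of 4%, where that of Col14a1 was -0.46. Among members of 3% to 6% collagen share Col6a2 was at -0.56 and Col12a1 at -0.48. The collagen share of members, which the rule used, was itself lower in Card14KI, and its part in these differences was not tested. Levels within a narrower range of shares are given below.

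The machinery that folds and modifies procollagen showed the same direction in 9 of 26 measured genes, with 0 higher and a median of -0.35. Serpinh1, the procollagen chaperone HSP47, was at 1590 CPM in Card14KI members and 2481 CPM in WT members (ratio 0.641, 0.571 to 0.717). P4ha1, a prolyl hydroxylase subunit, was at 75.7 and 152 CPM (ratio 0.497, 0.281 to 0.826). Plod2, a lysyl hydroxylase that sets collagen cross-links, had 2 UMIs in Card14KI members and 54 in WT members (ratio 0.141, 0.0166 to 0.533). The log2 ratio of P4ha1 was -0.50 after thinning, and that of Plod2 -0.48 at a collagen threshold of 4%. Ppib, a prolyl isomerase of the same list, did not part from 1, at 819 and 763 CPM (ratio 1.07, 0.906 to 1.27). In the strict members the list's median was -0.08, and Serpinh1 was at -0.51 on the log2 scale, under 1.5-fold. In the separate list of secretory pathway and unfolded protein response genes, 2 of 27 were higher and 2 lower, with a median of -0.19. The stress-induced chaperone gene Hspa5 was at 677 and 666 CPM (ratio 1.02, 0.844 to 1.22).

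Matricellular and adhesive glycoproteins were lower in 8 of 20 measured genes and higher in 1, with a median of -0.40. Sparc (mm10 chromosome 11, 55394500 to 55423183, minus strand) had 1614 UMIs in Card14KI members and 13525 in WT members (ratio 0.453, 0.430 to 0.477). The ratio was 0.406 in Pi16 fibroblasts and 0.706 in Myoc fibroblasts. Postn, the periostin gene, was at 1509 and 2452 CPM (ratio 0.615, 0.547 to 0.691), but came to a log2 ratio of 0.061 in the members with no UMI of Pi16, Myoc, Mmp11 or Lrrc15. Fn1, the fibronectin gene, was at 396 and 988 CPM (ratio 0.401, 0.319 to 0.499), while it was at 1183 and 1058 CPM in Pi16 fibroblasts. Among the subgroups of members described below, Fn1 differed little in subgroup 1, at 696 and 729 CPM. It was at 95.2 and 709 CPM in subgroup 2 and at 491 and 2066 CPM in subgroup 3. The calcification inhibitor gene Mgp was at 223 and 960 CPM, and 1 cell held 84.0% of its Card14KI UMIs; with the collagen threshold at 1% its log2 ratio came to 0.056.

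Proteoglycans differed little. Of 8 measured small leucine-rich proteoglycans 0 were higher and 1 lower, with a median of -0.01. Lum had a ratio of 1.27 (1.18 to 1.37), and Bgn, biglycan, was at 1158 and 1544 CPM (ratio 0.750, 0.654 to 0.857). Aspn, asporin, was the lower one at 254 and 494 CPM (ratio 0.514, 0.383 to 0.679), but had a log2 ratio of -0.09 among members of 3% to 6% collagen share. Elastic fibre genes had 7 of 15 lower and 1 higher. Eln, the elastin gene, was at 512 and 770 CPM (ratio 0.665) and Mfap4, which binds elastin, at 427 and 687 CPM (ratio 0.622). Both were higher among members of 3% to 6% collagen share, with log2 ratios of 0.63 and 0.92, whereas the fibrillin gene Fbn1 was at 846 and 914 CPM (ratio 0.925, 0.785 to 1.09).

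Basement membrane components had 1 of 11 genes higher and 2 lower (18.2%, against 14.2% of all genes), with a median of -0.18. Matrix proteases and inhibitors had 1 of 20 higher and 4 lower (20%), with a median of -0.10. Among the inhibitors, Timp3, which binds to the matrix, was at 1069 CPM in Card14KI members and 564 CPM in WT members (ratio 1.90, 1.62 to 2.22), with a log2 ratio of 0.48 after thinning. Timp1 went the other way, with 7 UMIs in Card14KI members and 170 in WT members (ratio 0.156, 0.0619 to 0.329). Timp2 was at 1981 and 2116 CPM (ratio 0.936, 0.842 to 1.04). The stromelysin gene Mmp3 was at 717 and 1110 CPM (ratio 0.646, 0.543 to 0.764), with a log2 ratio of -0.32 after thinning.

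**Figure D2:**
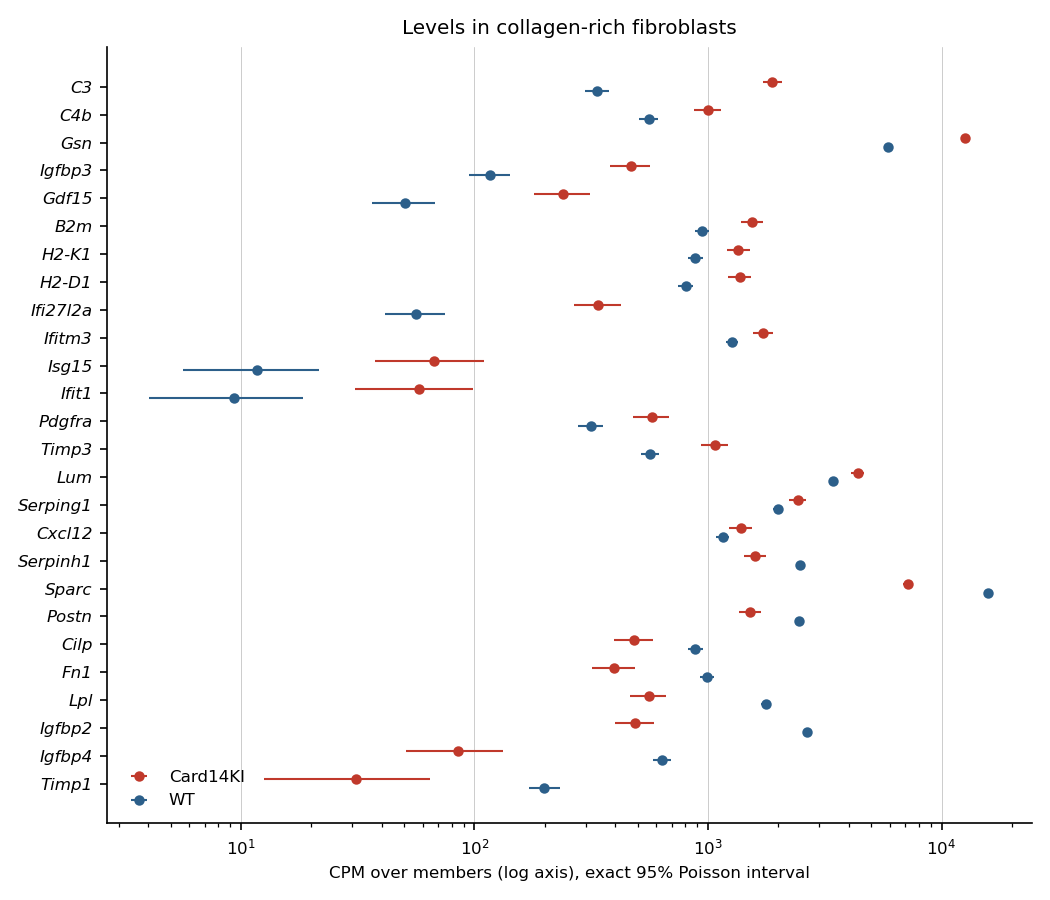
Level of 26 genes in collagen-rich fibroblasts (x axis, CPM, log scale) with exact 95% Poisson intervals, Card14KI in red above WT in blue for each gene, over 54 and 130 cells. C3 and Igfbp3 lie to the right in Card14KI, Sparc and Serpinh1 to the left, and of the genes lower in Card14KI the gap is widest for Igfbp2, Igfbp4 and Timp1.

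In the complement list, C3 was the gene furthest above WT in Card14KI members. Of 13 measured, 7 were 1.5-fold higher (53.8%, against 19.4% of all genes) and 1 lower, with a median of 0.63. The 7 include C1qtnf1, C1qtnf2 and C1qtnf7, secreted C1q- and TNF-related proteins that are not complement components. Of the other 10 genes, 4 were higher and 1 lower, with a median of 0.24. C3, the central complement component (ENSMUSG00000024164, mm10 chromosome 17, 57203970 to 57228136, minus strand), had 424 UMIs in Card14KI members and 286 in WT members. These came to 1888 CPM (1712 to 2076) and 335 CPM (298 to 376) (ratio 5.63, 4.84 to 6.57). After each cell was thinned to 2000 UMIs, 29 of 42 Card14KI members (69.0%) and 34 of 109 WT members (31.2%) had a C3 UMI, leaving out 12 and 21 shallower cells. Before thinning the shares were 74.1% and 37.7%, and in barcodes without Dcn, at median depths of 9859 and 5781 UMIs, 10.4% and 12.0%, or 3.21% and 4.86% with these barcodes thinned alike. C4b, a component of the classical pathway, was at 1002 and 558 CPM (ratio 1.80, 1.53 to 2.11), and C1ra, a classical pathway protease, at 441 and 281 CPM (1.57, 1.23 to 1.99). Both fell under 1.5-fold in the strict members, with log2 ratios of 0.35 and 0.10, and among members of 3% to 6% collagen share, with 0.21 and 0.38. Serping1, the C1 inhibitor, was at 2422 and 1988 CPM (1.22, 1.10 to 1.34).

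The C3 difference was smaller in other fibroblasts and, among members, present at each collagen level. C3 was at 2283 and 1190 CPM in Pi16 fibroblasts, a ratio of 1.92, and at 3047 and 1959 CPM in Myoc fibroblasts, a ratio of 1.56. In the WT library the C3 level was lowest in the members richest in collagen. It was at 1953 CPM just under the threshold, 440 CPM at a collagen share of 2% to 2.5%, 553 CPM at 2.5% to 5%, 274 CPM at 5% to 10% and 53.0 CPM at 10% or more. In Card14KI the same windows had 2511, 2233, 1661, 2409 and 1073 CPM, the last from 2 cells. The WT level thus dropped across the threshold and again above 5%, while the Card14KI windows up to 10% stayed between 1661 and 2511 CPM. Gsn, the gene of the actin-severing protein gelsolin, was at 12618 CPM in Card14KI members and 5884 CPM in WT members (ratio 2.14, 2.05 to 2.25), and it too was lower in the WT members richest in collagen, at 2240 CPM.

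Since Card14KI members held less collagen, the levels were also compared among members of 3% to 6% collagen share, 25 in the Card14KI library and 54 in the WT library, a choice made after the data were seen. The log2 ratio of Sparc was -0.38 there, against -1.14 over all members, that of C3 1.75 against 2.46, and that of Gsn 0.52, so that Sparc and Gsn were under 1.5-fold. Igfbp2, described below, had -1.22 against -2.43. Cilp turned, at 0.76. The collagens outside the rule had a median of -0.71 and the complement list one of 0.36, while elastic fibre genes came to 0.24, against -0.22 over all members. Interferon-stimulated genes and MHC class I genes, described next, had medians of 0.99 and 0.99. Collagen shares were not matched within this range, and their part in the differences was not tested.

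Interferon-stimulated genes were higher in Card14KI members. Of 22 measured, 16 were 1.5-fold higher (72.7%, against 19.4% of all genes) and 0 lower (against 14.2%), with a median of 0.87. Of the 7 at a mean of 100 CPM or more, 4 were higher, against 11.5% of all genes at that mean. The list summed to 1057 UMIs in 53 of 54 Card14KI members and 2528 UMIs in 127 of 130 WT members, and the top cell held 6.91% and 3.01% of them. This sum includes the abundant Ifitm3, which was not past 1.5-fold, so its spread over cells does not describe the higher genes. Single genes were sparse. Ifitm1 was found in 17 Card14KI and 6 WT members, and Isg15 in 10 and 7. Ifi27l2a, an interferon-alpha-inducible gene, was at 338 and 56.3 CPM (ratio 6.01, 4.14 to 8.82), in 14 Card14KI and 22 WT members. An Ifi27l2a UMI was found in 16.7% of thinned Card14KI members and 14.1% of barcodes without Dcn thinned alike (25.9% and 26.6% before thinning), so the share is not read as expression. Isg15, a ubiquitin-like protein, had 15 and 10 UMIs (ratio 5.70, 2.39 to 14.2), and Ifit1, which binds foreign RNA, had 13 and 8 (6.17, 2.37 to 17.2). Psmb8, an immunoproteasome subunit, was at 183 and 97.3 CPM (1.88, 1.26 to 2.76), with a log2 ratio of 0.46 in the strict members. The most abundant member, Ifitm3, which restricts virus entry, was at 1723 and 1266 CPM (ratio 1.36, 1.21 to 1.53). The list's median was 0.41 in Pi16 fibroblasts and 0.49 in Myoc fibroblasts.

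Interferon acts on many of these genes through a promoter element built of repeated GAAA. The 4 promoters shown are of genes that were higher in Card14KI members. They were taken only from promoters with a match, so they do not show how often the higher genes have one. The sequences are RefSeq's for GRCm38.p6, on the strand of the gene, from 250 to 31 bases before the annotated start. Capitals mark matches to GAAANNGAAA on either strand, where on the other strand the match reads as TTTCNNTTTC. In Isg15 (chr4:156200849-156201068, minus strand) 3 matches overlap, and they begin 78, 72 and 66 bases before the start. Ifit1 (chr19:34640639-34640858, plus strand) has 2 and Ifit3 (chr19:34583279-34583498, plus strand) has 2. B2m (chr2:122147437-122147656, plus strand) has 1, which begins at 139 bases.
Isg15: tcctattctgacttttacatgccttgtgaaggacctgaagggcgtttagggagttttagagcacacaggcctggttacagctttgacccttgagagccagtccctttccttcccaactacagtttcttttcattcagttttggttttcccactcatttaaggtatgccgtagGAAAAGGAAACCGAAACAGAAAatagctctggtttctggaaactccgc
Ifit1: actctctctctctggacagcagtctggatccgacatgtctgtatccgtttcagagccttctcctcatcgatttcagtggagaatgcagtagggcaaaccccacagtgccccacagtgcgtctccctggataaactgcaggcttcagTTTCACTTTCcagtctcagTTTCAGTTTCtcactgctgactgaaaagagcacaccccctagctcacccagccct
Ifit3: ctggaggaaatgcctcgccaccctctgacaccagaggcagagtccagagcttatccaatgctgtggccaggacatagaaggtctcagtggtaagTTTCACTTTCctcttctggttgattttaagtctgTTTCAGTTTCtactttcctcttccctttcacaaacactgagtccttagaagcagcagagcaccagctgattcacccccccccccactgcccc
B2m: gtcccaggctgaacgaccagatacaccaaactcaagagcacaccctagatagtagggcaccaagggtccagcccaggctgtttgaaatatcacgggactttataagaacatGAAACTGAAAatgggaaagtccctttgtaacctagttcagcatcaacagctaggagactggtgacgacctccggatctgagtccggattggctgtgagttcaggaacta
At least 1 match within 250 bases before the start was found in 12 of 25 interferon-stimulated genes of the list with a RefSeq promoter (48.0%), in 3 of 10 MHC class I genes and in 936 of 27025 genes in all (3.46%). Ifit3, a partner of Ifit1, had 8 UMIs in Card14KI members and 5 in WT members (ratio 6.08, 1.75 to 23.6). A match describes the letters and does not show that a factor bound there.

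MHC class I genes, which present peptides to CD8 T cells, were 1.5-fold higher in 9 of 11 and lower in 0, with a median of 0.70. B2m, the light chain shared by all class I molecules (ENSMUSG00000060802, mm10 chromosome 2, 122147686 to 122153083, plus strand), had 346 UMIs in Card14KI members and 807 in WT members. That was 1541 and 946 CPM (ratio 1.63, 1.43 to 1.85), against 1.16 in Pi16 and 1.69 in Myoc fibroblasts. The classical heavy chains H2-K1 and H2-D1 were at 1349 and 884 CPM and at 1367 and 802 CPM, ratios of 1.53 (1.33 to 1.75) and 1.70 (1.49 to 1.95). All 3 were under 1.5-fold in the strict members, with log2 ratios of 0.37 for B2m, 0.047 for H2-K1 and 0.22 for H2-D1, and the list's median there was 0.37. H2-Q7, a non-classical heavy chain, had 20 and 16 UMIs (ratio 4.75, 2.34 to 9.80), and H2-Q6 had 12 and 5. Reads of these near-identical heavy chains can be split or lost, so the ratio of a single H2 gene is uncertain.

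**Figure D3:**
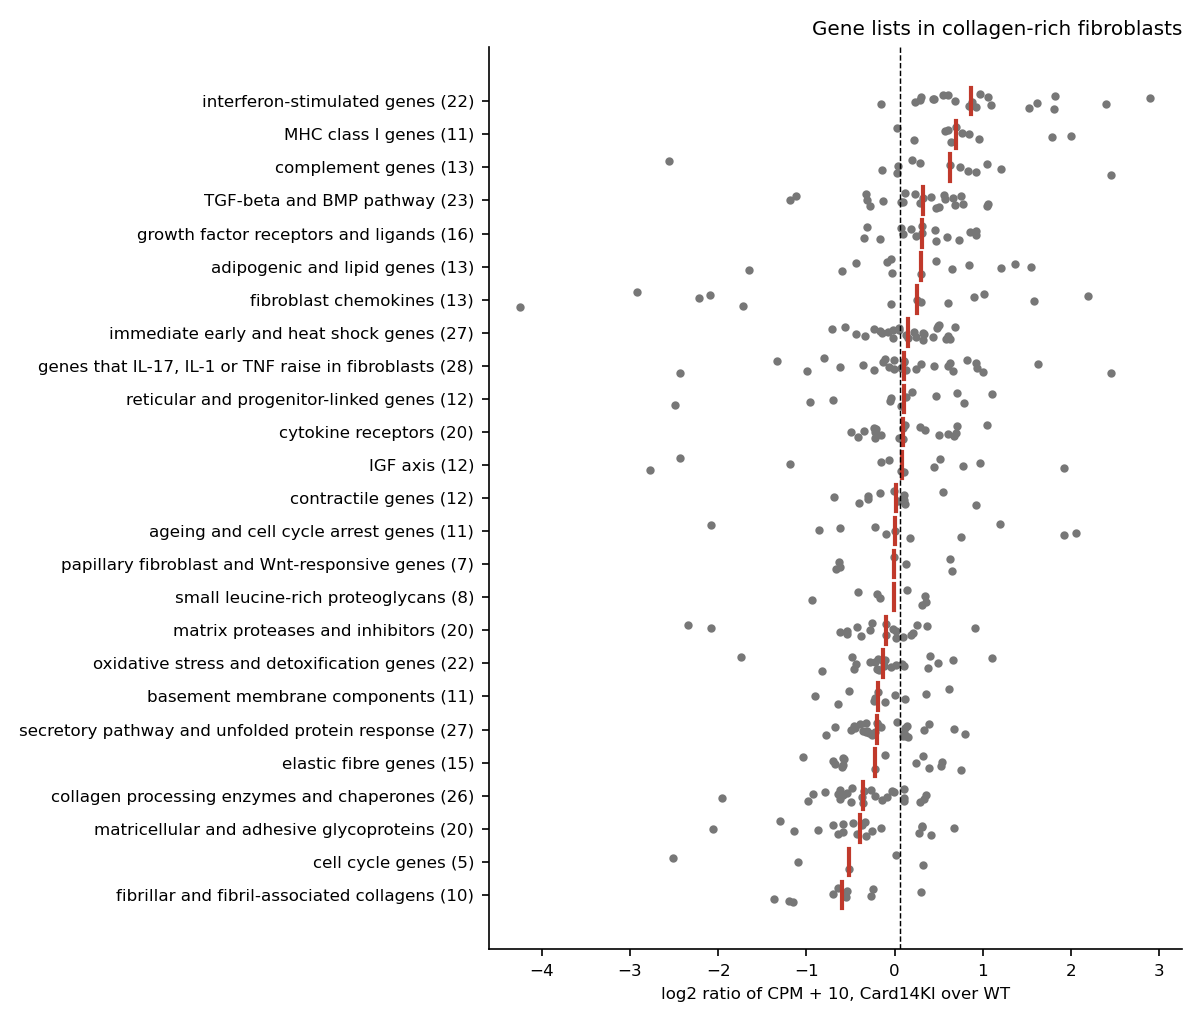
Log2 ratio of CPM + 10, Card14KI over WT members (x axis), for each measured gene (grey points) of 25 lists (rows, with the number of genes), ordered by median (red bars); the dashed line is the median of all measured genes at 0.06. Interferon-stimulated, MHC class I and complement lists have the highest medians (0.87, 0.70 and 0.63), and collagens the lowest (-0.60).

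The IGF axis held some of the clearest single-gene differences and no common direction, with 3 of 12 genes higher and 3 lower. Igfbp2, an IGF-binding protein (ENSMUSG00000039323, mm10 chromosome 1, 72824503 to 72852474, plus strand), had 109 UMIs in 7 Card14KI members and 2275 UMIs in 40 WT members. That was 485 CPM (399 to 585) and 2667 CPM (2558 to 2779) (ratio 0.182, 0.149 to 0.221), and 0.198 in Pi16 fibroblasts. With cells thinned, 11.9% of Card14KI and 27.5% of WT members had a UMI, against 8.76% and 7.18% of barcodes without Dcn thinned alike. The interval of the Card14KI share (3.98% to 25.6%) holds the share without Dcn. Of the 109 UMIs, 108 lay in 1 subgroup, described below, but Igfbp2 was among the genes that formed the subgroups, so this is a description. Igfbp4 had 19 and 542 UMIs (ratio 0.133, 0.0795 to 0.210), and 1 cell held 63.2% of the Card14KI UMIs. It was not lower in Pi16 fibroblasts, at 790 and 768 CPM. Igfbp3 was higher, with 105 and 99 UMIs, at 468 and 116 CPM (ratio 4.03, 3.03 to 5.36). Igf1, the ligand, was at 178 and 418 CPM (0.426, 0.299 to 0.591), and Igf1r, its receptor, at 214 and 104 CPM (2.05, 1.41 to 2.94). Igf1r was at 383 and 126 CPM in subgroup 1 of the members, described below, but at 76.2 and 83.8 CPM in subgroup 2.

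Growth factor receptors and ligands had 6 of 16 genes higher and 0 lower, with a median of 0.31. Pdgfra, the PDGF receptor that marks fibroblasts, was at 574 CPM in Card14KI members and 314 CPM in WT members (ratio 1.83, 1.47 to 2.26), with 1.13 in Pi16 and 0.720 in Myoc fibroblasts. TGF-beta and BMP pathway genes had 9 of 23 higher and 2 lower, with a median of 0.33. Fst, the activin antagonist follistatin, was at 214 and 97.3 CPM (ratio 2.20, 1.51 to 3.17), and Id3, a target of BMP signals, at 338 and 211 CPM (1.60, 1.21 to 2.11). Their log2 ratios in the strict members were 0.57 and 0.57, under 1.5-fold on the log2 scale. The receptor gene Tgfbr2 was at 565 and 538 CPM (1.05, 0.857 to 1.28).

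The series title names IL-17 and IL-36. Genes that IL-17, IL-1 or TNF raise in fibroblasts had 9 of 28 higher and 5 lower in Card14KI members, with a median of 0.11. Tnfaip6, a hyaluronan-binding protein, was at 1037 and 584 CPM (ratio 1.78, 1.51 to 2.08), with a log2 ratio of 0.12 at a collagen threshold of 4%. Icam1, an adhesion receptor for leukocytes, was at 391.8 and 200.5 CPM (1.95, 1.49 to 2.54), though with a log2 ratio of -0.047 at a collagen threshold of 4%. Il6 had 46 and 51 UMIs, with 56.5% of the Card14KI UMIs in 1 cell and a log2 ratio of 0.47 among members of 3% to 6% collagen share. Others did not part from 1, such as Nfkbiz, a co-factor of the IL-17 response, at 93.5 and 111 CPM (0.840, 0.497 to 1.36). Of 20 measured cytokine receptors 5 were higher (25%, against 19.4% of all genes) and 2 lower. The IL-17 receptor gene Il17ra was at 49.0 and 36.3 CPM (1.35, 0.611 to 2.75), and Il1rl2, the IL-36 receptor gene, at 102 and 58.6 CPM (1.75, 1.02 to 2.92). Il1r2, the decoy receptor for IL-1, was at 307 and 143 CPM (2.15, 1.58 to 2.91). The log2 ratio of Il1rl2 was 0.43 with each cell weighing the same, and that of Il1r2 0.55 in the strict members.

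Chemokines were split, with 5 of 13 higher and 5 lower. Cxcl14 had 3 UMIs in Card14KI members and 369 in WT members (ratio 0.0309, 0.00634 to 0.0910), and Ccl8 had 12 and 169 (0.270, 0.137 to 0.484). With cells thinned, 2.38% of Card14KI and 15.6% (9.36 to 23.8) of WT members had a Cxcl14 UMI. Barcodes without Dcn thinned alike had one in 4.87% and 10.7%, so the interval of the WT share holds the WT share without Dcn. Cxcl14 was also lower in Pi16 and Myoc fibroblasts, with ratios of 0.134 and 0.224. Ccl7, which draws monocytes, was at 534 and 347 CPM (1.54, 1.23 to 1.91) but had a log2 ratio of 0.15 after thinning, and Ccl2 at 423 and 342 CPM (1.24, 0.970 to 1.56). Cxcl12, the homeostatic chemokine of dermal fibroblasts, was at 1380 and 1158 CPM (1.19, 1.05 to 1.36). In the adipogenic and lipid list 5 of 13 genes were higher and 2 lower. Lpl, the lipoprotein lipase gene, was at 557 and 1771 CPM (ratio 0.314, 0.260 to 0.377).

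The remaining lists had these counts. Immediate early and heat shock genes, which tissue digestion raises, had 4 of 27 higher and 2 lower, with Fos at 1897 CPM in Card14KI members and 1245 CPM in WT members, though with a log2 ratio of 0.02 at a collagen threshold of 4%. Reticular and progenitor-linked genes had 3 of 12 higher and 3 lower, with Cd34 at 833 and 508 CPM (log2 ratio 0.48 after thinning) and Thy1 at 338 and 666 CPM. Papillary and Wnt-responsive genes had 2 of 7 higher and 3 lower, contractile genes 2 of 12 and 1, ageing and cell cycle arrest genes 4 of 11 and 3, oxidative stress genes 2 of 22 and 3, and cell cycle genes 0 of 5 and 2. Among sex-linked genes 1 was measured, Xist, at 1144 and 811 CPM.

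By ratio alone, the 14 highest genes included C3, Igfbp3 and Gdf15, a stress-induced cytokine of the TGF-beta family at 240 CPM in Card14KI members and 50.4 CPM in WT members (4.77, 3.14 to 7.29). The 14 lowest included Igfbp2, Timp1 and Plod2, along with Il33, an alarmin of the IL-1 family with 1 and 58 UMIs, and Ctla2a, a cathepsin inhibitor with 4 and 161. Most of the others rested on under 20 Card14KI UMIs. Ratios of Apoe (908 and 389 CPM) and of the hair follicle gene Tchh (1 and 49 UMIs) were left apart, since barcodes without Dcn held these genes at over 5 times the level of members. The nuclear RNA Malat1 was at 28550 and 15270 CPM, and Gm42418, a locus whose reads overlap ribosomal RNA, at 16212 and 34904 CPM. The part of RNA quality in the differences above was not tested.

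The second comparison set the members beside other fibroblasts of their own library. Of 5832 measured genes, 1322 (22.7%) were 1.5-fold or more higher in members in the Card14KI library, where members had the fewest UMIs, 293 (5.02%) in the WT library and 167 (2.86%) in both. Igfbp2 was 12.4 times higher in Card14KI members and 12.8 times in WT members than in the other fibroblasts, in which it stood at 39.0 and 208 CPM. Stc1, the secreted glycoprotein stanniocalcin, was 14.1 and 13.7 times higher, and Sema3a, a guidance cue that repels nerve fibres, 7.0 and 6.18 times. Olfm2, an olfactomedin, was 20.8 and 4.04 times higher, from 18 and 42 UMIs. Serpinh1 was 1.70 and 1.57 times higher and Postn 3.81 and 1.52 times. However, the Lrrc15 and Mmp11 fibroblasts held more Postn than the members, at 1833 and 4190 CPM. In the Card14KI library this group, of 31 cells, also held more Igfbp2 than the members. C3 was lower in members than in the other fibroblasts, 0.716 times in Card14KI and 0.276 times in WT, and so was Ifi27l2a, 0.132 and 0.104 times. These cells were chosen by collagen, so genes that go with collagen in a cell had to differ, and no test was made.

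**Figure D4:**
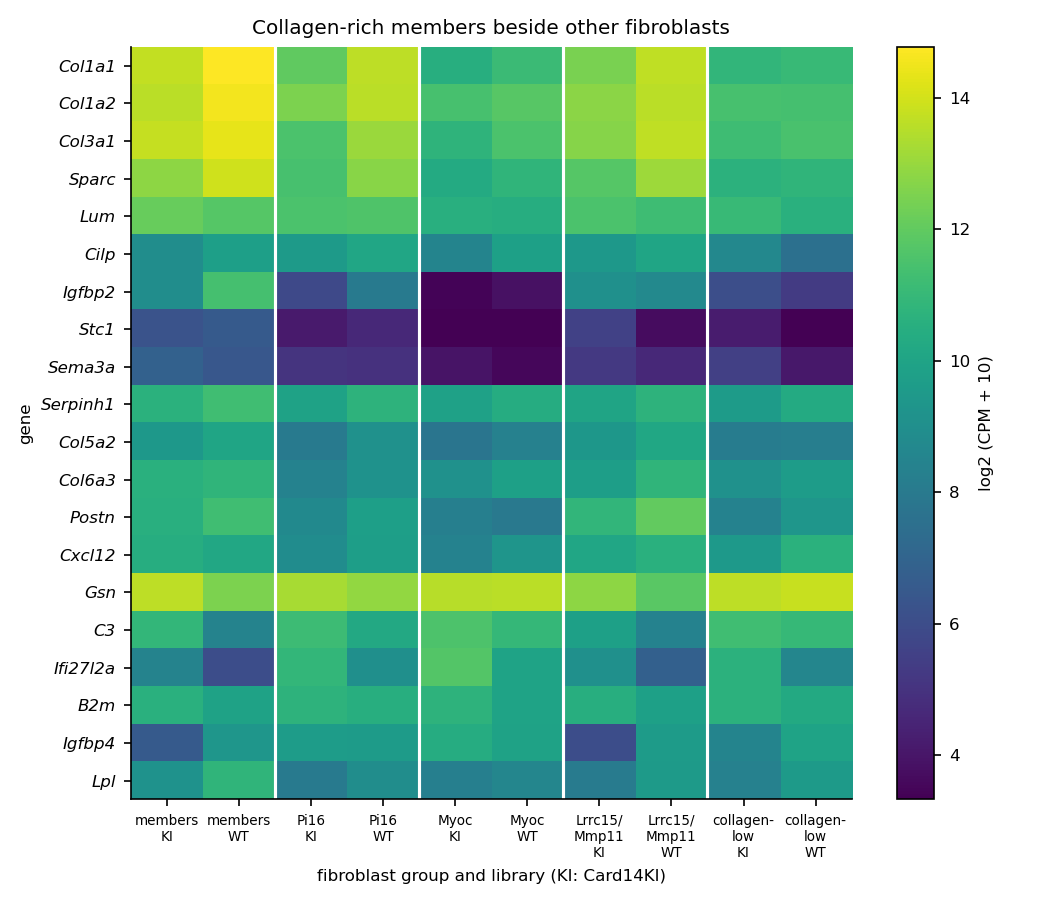
Log2 of CPM + 10 (colour) of 20 genes (rows) in the members and the 4 other fibroblast groups, each with Card14KI left of WT (columns). Igfbp2, Stc1 and Sema3a are highest in members or, for Igfbp2 in Card14KI, in the Lrrc15 and Mmp11 group, while Ifi27l2a is lowest in WT members and highest in Myoc fibroblasts of the Card14KI library.

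Members also varied among themselves. Clustering of all members, without the genes of the rule, gave 3 subgroups. Subgroup 1 had 84 cells (29 Card14KI and 55 WT) and was led by Igfbp2, Aldh3a1, Grem1 and Cilp, with a median collagen share of 6.14% and a Dcn share of 2.22%. Subgroup 2 had 71 cells (21 and 50) and was led by genes that included Cxcl14, Igfbp4 and Gdf10, with 3.59% and 1.08%. Subgroup 3 had 29 cells (4 and 25) and was led by Lor, Krtdap, Ptx3 and Cxcl2. Lor and Krtdap are cornified keratinocyte genes and 95.5% and 96.7% of their WT UMIs lay in 1 cell, so subgroup 3 is given no name. The leading genes were among those clustered and are a description.

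Some genes lay almost wholly in 1 of subgroups 1 and 2, while others, such as Sparc and Lum, were high in both. Grem1, a BMP antagonist, was at 403 CPM in Card14KI and 250 CPM in WT cells of subgroup 1 and at 0 in subgroup 2 of both libraries. Aldh3a1, a detoxifying aldehyde dehydrogenase, showed the same, at 413 and 273 CPM. Cilp was at 1079 and 2048 CPM in subgroup 1 and at 9.52 and 68.9 CPM in subgroup 2. Mfap4 and Eln also lay mainly in subgroup 1. In the other direction, Postn was at 171 and 413 CPM in subgroup 1 and at 2247 and 4134 CPM in subgroup 2. Cxcl12 was at 292 and 207 CPM in subgroup 1 and at 2237 and 1901 CPM in subgroup 2, and Col6a3 at 665 and 637 CPM and at 2313 and 2604 CPM. Lpl was at 30.2 and 40.2 CPM in subgroup 1 and at 809 and 3766 CPM in subgroup 2.

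**Figure D5:**
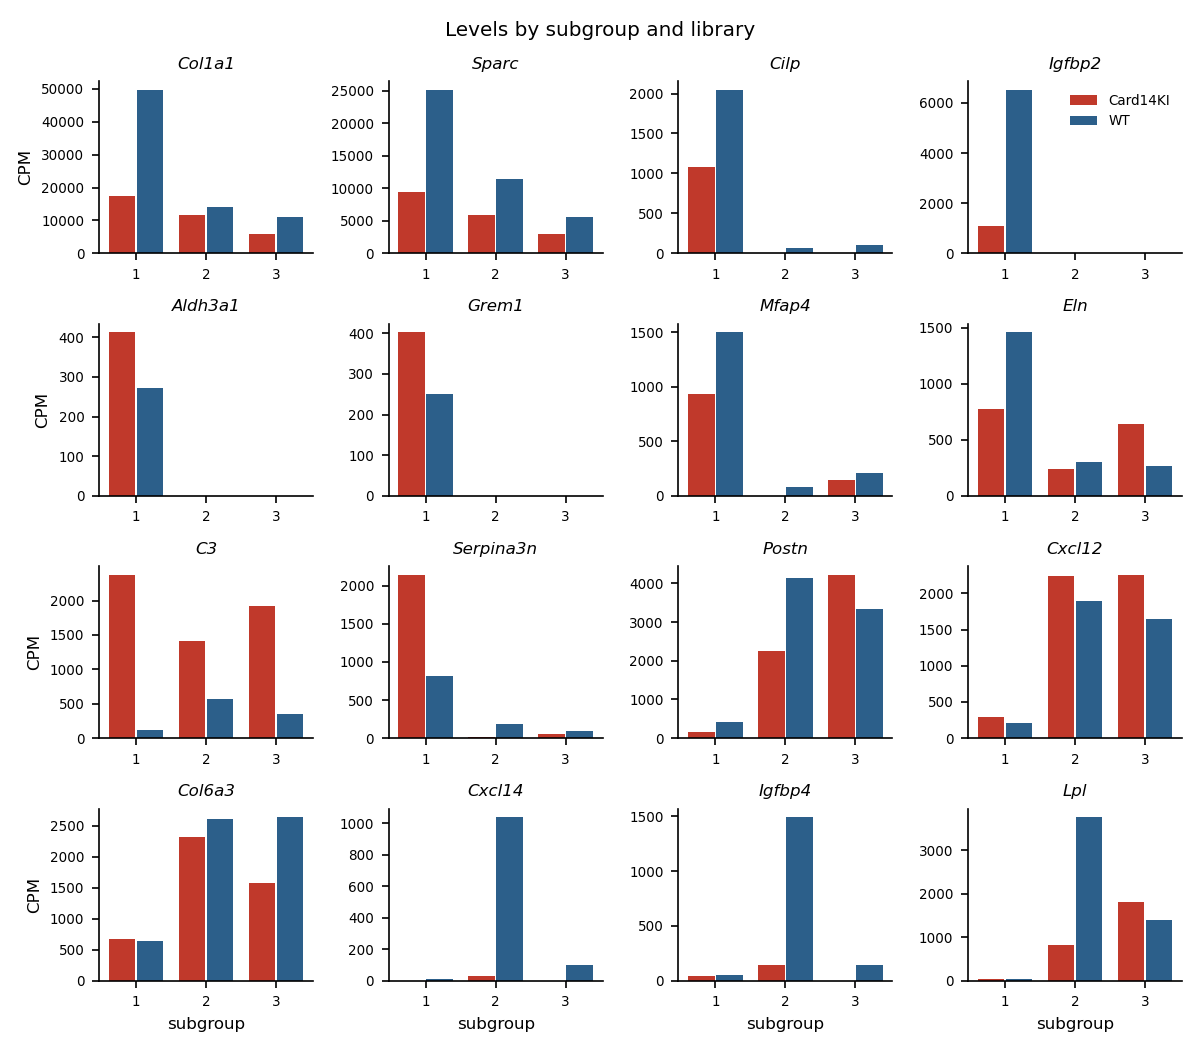
Level in CPM (y axis, from 0, a scale for each gene) of 16 genes in the 3 subgroups of members (x axis), Card14KI in red left of WT in blue; subgroup 3 has 4 Card14KI cells. Cilp, Igfbp2, Aldh3a1, Grem1 and Mfap4 are high in subgroup 1, Postn, Cxcl12, Col6a3 and Lpl outside it, and C3 is higher in Card14KI in each.

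Some differences between libraries were found in both subgroups and others in 1, and none of these contrasts was tested. C3 was at 2379 CPM in Card14KI and 112 CPM in WT cells of subgroup 1, and at 1418 and 563 CPM in subgroup 2. Sparc was lower in Card14KI in both, at 9466 and 25152 CPM in subgroup 1 and at 5845 and 11402 CPM in subgroup 2. Col1a1, a gene of the rule, was at 17288 and 49733 CPM in subgroup 1 and at 11528 and 14186 CPM in subgroup 2. Class I genes stood higher in subgroup 1, where B2m was at 2167 and 1196 CPM, against 981 and 781 CPM in subgroup 2. Among interferon-stimulated genes, Ifi27l2a was at 40.3 and 14.3 CPM in subgroup 1 and at 552 and 117 CPM in subgroup 2, and Isg15 at 0 and 20.1 CPM and at 114 and 2.99 CPM. In subgroup 3 the 4 Card14KI cells had 688 CPM of Ifi27l2a and 147 CPM of Isg15, from 14 and 3 UMIs. Ifitm1, with the highest ratio of the list, was at 423 and 2.87 CPM in subgroup 1 and at 38.1 and 44.9 CPM in subgroup 2. Serpina3n, an acute-phase protease inhibitor, was at 2147 and 812 CPM in subgroup 1 and at 19.0 and 180 CPM in subgroup 2. Igfbp2 was lower in Card14KI within subgroup 1, at 1089 and 6526 CPM, and Igfbp4 and Cxcl14 within subgroup 2, at 143 and 1494 CPM and at 28.6 and 1042 CPM. Subgroup 1 made up 29 of 54 Card14KI members and 55 of 130 WT members. With the same subgroup weights in both libraries no named gene past 1.5-fold turned its direction, but 2 fell under 1.5-fold on the log2 scale. In this weighting subgroup 3 rests on 4 Card14KI cells.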

How the data were processed

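Cells of full-thickness back skin, digested for 73 minutes, gave 1 library per genotype with the 10x 3' kit version 3.1, per the labels' protocols. The authors deposited a matrix of raw UMI counts for each library. The submitters' processing notes name Cell Ranger 6.0.2 and mm10, whereas the matrix headers name version 5.0.0.

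Barcodes with 500 or more genes and a mitochondrial share under 20% were kept, 2913 in Card14KI and 4335 in WT, and 435 and 681 were left out. Fibroblast barcodes were grouped in order: 2 or more UMIs of Mmp11 with Lrrc15, then 2 of Myoc, then 2 of Pi16, then the collagen threshold. Doublets were not removed; taking out the highest Scrublet scores removed 0 Card14KI and 2 WT members. Member UMIs were summed per library and scaled to CPM. A gene was called at 1.5-fold by the ratio of CPM, among genes with a mean of 20 CPM, without the genes of the rule. Log2 ratios used CPM + 10. For named genes in the settings tried, 1.5-fold was read from the log2 ratio. Ratios have exact conditional binomial intervals, levels exact Poisson and shares Clopper-Pearson intervals, all at 95%. Thinning drew 2000 UMIs per cell. Subgroups came from Leiden clustering (2000 genes, 20 components, 15 neighbours, resolution 0.5). Gene positions are from GENCODE vM21, in which 31011 of 31053 features were located. No test was made, since each genotype has 1 library. The counting scripts were tested on simulated data.

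The members, the rule and the 26 gene lists were chosen with earlier results of these data known. Named genes were up to 6 per list, the 14 highest and 14 lowest ratios whose top cell held under 20% of UMIs and which were not far more abundant in barcodes without Dcn, the genes furthest above the other fibroblasts, and the leaders of each subgroup, 1 of which is not reported here. Settings tried besides concern the filters, the thresholds of the rule, scaling, thinning and single cells. Python 3.11.15, numpy 2.4.6, scipy 1.17.1, pandas 2.3.3, scanpy 1.11.5, leidenalg 0.10.2 and matplotlib 3.10.9 were used.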

Additional observations from a re-analysis of the deposited data

Results flagged for a closer look

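For 2 genes the direction between the libraries was opposite in the 2 fibroblast groups compared. Plin2, which coats lipid droplets, was at 272 CPM in Card14KI members and 99.6 CPM in WT members (ratio 2.73, 1.93 to 3.83), but at 60.5 and 98.4 CPM in Pi16 fibroblasts (ratio 0.614, 0.518 to 0.727). Deptor, an inhibitor of mTOR, was at 156 and 102 CPM in members (ratio 1.53, 1.0 to 2.29) and at 87.8 and 147 CPM in Pi16 fibroblasts (0.599, 0.520 to 0.688). Its log2 ratio in members was 0.57, which is under 1.5-fold on the log2 scale. This log2 ratio was 0.22 in members with 0 UMIs of Pi16, Myoc, Mmp11 and Lrrc15, and 0.079 after thinning. Barcodes without Dcn held 422 and 436 CPM of Plin2 and 17.7 and 36.1 CPM of Deptor. With 1 library per genotype the difference between the fibroblast groups was not tested.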

How the results depend on the processing

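Over 86 named genes and 19 settings, 1411 of 1634 log2 ratios stayed within the counting interval of the value given and 215 moved beyond it. The other 8 changed sign and were of genes called at 1.5-fold by the ratio of CPM. Sign changes of genes not called were counted among the 1411 and the 215. Lum, for example, ranged from -0.13 to 0.66 and Stc1 from -2.03 to 0.88. Of the 66 named genes past 1.5-fold on the log2 scale, 39 moved by over 1.5 times in at least 1 setting. Of the 66, 37 fell under 1.5-fold on that scale or turned in at least 1. Those 8 were Cilp at 0.76, Eln at 0.63 and Mfap4 at 0.92 among members of 3% to 6% collagen share, Postn at 0.061, Grem1 at -0.71 and Ptx3 at 0.039 among members with 0 UMIs of Pi16, Myoc, Mmp11 and Lrrc15, Mgp at 0.056 with the collagen threshold at 1%, and Icam1 at -0.047 with it at 4%. List medians ranged from -0.82 to -0.40 for collagens, 0.24 to 0.73 for complement, 0.69 to 1.0 for interferon-stimulated and 0.37 to 0.99 for MHC class I genes. The threshold at 1% gave 89 Card14KI members, and at 4% 19 Card14KI and 77 WT members. With 0 UMIs of the 4 genes 24 and 65 remained, and at 4000 UMIs or more 29 Card14KI members. Genes higher in Card14KI members came to 731 without the top cell of each gene, and to 2439, 396 and 164 at mean CPM filters of 5, 50 and 100; genes lower came to 2134, 291 and 117 at these filters, and to 1281 after thinning. The subgroups numbered 2 at resolution 0.3 and 5 at 0.8. The cause of these shifts was not tested. The collagen band, the 0 UMI rule, the 4000 UMI filter, the 100 CPM filter and the removal of members with cornified envelope UMIs were added after seeing the data. No paired analysis was possible because each genotype has 1 library. At 54 Card14KI cells, 1 UMI is 4.45 CPM, and differences of genes under about 20 UMIs are known only within wide intervals.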
